A study of Mus musculus with 4 samples.

Results

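The genes of glycolysis and of the response to low oxygen were followed across activated mouse B cells with and without a labelled deletion of Adar1. The members are 36 gene symbols of textbook pathways, chosen with earlier results of these data known. They are the enzymes from glucose to lactate, the transporters of glucose and lactate, the oxygen-sensing factor HIF and its regulators, and well-known HIF targets. They were found in the deposited count table by exact symbol and occupied 37 of its 55401 rows, because Aldoa is listed under a pair of identifiers. Of these rows 35 had enough reads to be tested, and Ldhb and P4ha2 did not. Between genotypes 24 rows fell and 3 rose in the cKO-labelled libraries, where 9.54% of all genes tested fell and 12.2% rose. The cKO-labelled library 2 stood below library 1 for 30 of the 35 rows, beside 47.7% of all genes tested.

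Per the labels, all cells were splenic B cells of C57BL/6 mice, isolated with anti-CD43 beads and cultured for 36 h. The medium held anti-CD40 at 1 µg/ml, an antibody that imitates T-cell help, and anti-IgM at 10 µg/ml, which cross-links the antigen receptor. The 2 libraries labelled Adar1 cKO come from mice in which Adar1 was deleted conditionally in B cells, per the series' labels. Adar1 (current symbol Adar) is the enzyme that converts adenosine to inosine in double-stranded RNA. The 2 wild-type libraries come from mice without that deletion and went through the same culture, and no unstimulated or hypoxic sample is analysed here. The Cre driver, the deleted exons, the sex and age of the mice, and whether each library is 1 animal are not stated in the labels. The p-values below therefore measure the spread between libraries, which may be technical.

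Library totals lay between 17327480 and 19669651 counts, and 14180 genes were tested. Adar itself stood at 218 and 232 CPM (counts per 1000000 library counts, scaled with TMM factors) in cKO-labelled libraries 1 and 2, against 137 and 149.8 CPM in wild-type libraries 1 and 2. Its gene-level change was a rise of 0.65 ± 0.063 on the log2 scale (edgeR adjusted p of 3.39e-08), which goes against the direction the label names. Gene-level counts cannot show the loss of single exons, and every direction below therefore rests on the labels. The B-cell marker Cd79a, a chain of the antigen receptor, had 729 and 743 CPM in cKO-labelled libraries, against 963 and 906 CPM in wild type, and Pax5, the B-cell identity factor, 605 and 609.8 CPM in cKO-labelled libraries, against 712 and 711 CPM in wild type. Cd79b was lower as well, and Ms4a1 was not called, at 858 and 894 CPM in cKO-labelled libraries, against 806 and 815 CPM in wild type. Of the 5 T-cell markers and the 5 neutrophil markers, sums stayed between 0.71 and 3.32 CPM in every library, and Ly6g had no count at all. The 5 macrophage markers summed to 45.8 and 54.8 CPM in cKO-labelled libraries, against 128 and 123 CPM in wild type, mostly Adgre1. The 5 dendritic cell markers, of which 3 were higher, summed to 108 and 112 CPM in cKO-labelled libraries, against 57.8 and 56.9 CPM in wild type. The part of these markers in the results below was not tested. In bulk RNA, fewer cells of a type and less RNA per cell cannot be told apart.

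Glycolysis splits glucose into pyruvate, and cells that divide fast reduce much of that pyruvate to lactate and export it. HIF is a transcription factor of an oxygen-labile alpha subunit, such as the product of Hif1a, and a stable beta subunit. In the presence of oxygen, prolyl hydroxylases (Egln genes) mark the alpha subunit for destruction by the VHL ubiquitin ligase, and when oxygen is scarce it survives and switches on glycolytic enzymes, angiogenic factors and mitophagy receptors. B cells stimulated through the antigen receptor and CD40 take up more glucose and raise many of these genes, also through MYC.

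HIF binds short elements with the core ACGTG or GCGTG, and MYC and related factors bind the E-box CACGTG, which contains ACGTG. Promoter windows of 250 bases before the annotated start, from RefSeq on GRCm38.p6, were searched for these letters on both strands. They could be matched to 34 of the 36 symbols. The windows of 4 genes, without any base in an annotated exon of the gene, are printed as examples that hold ACGTG. They belong to 3 members that fell (Ldha, Pgk1 and Hk2) and 1 that rose (Hif1a). They are written 5′ to 3′ on the strand of the gene, and capitals mark ACGTG or GCGTG on either strand.
Ldha, chr7:46845554-46845803, plus strand: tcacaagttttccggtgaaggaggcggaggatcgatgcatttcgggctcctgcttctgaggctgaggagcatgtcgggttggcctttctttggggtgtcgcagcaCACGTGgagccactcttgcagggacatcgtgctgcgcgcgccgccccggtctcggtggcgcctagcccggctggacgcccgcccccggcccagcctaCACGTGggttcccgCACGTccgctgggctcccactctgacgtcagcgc
Pgk1, chrX:106186850-106187099, plus strand: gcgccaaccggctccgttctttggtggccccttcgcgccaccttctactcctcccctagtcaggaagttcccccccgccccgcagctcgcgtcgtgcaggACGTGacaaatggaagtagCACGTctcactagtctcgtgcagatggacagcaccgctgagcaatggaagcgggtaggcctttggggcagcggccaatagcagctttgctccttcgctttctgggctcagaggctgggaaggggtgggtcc
Hk2, chr6:82774455-82774704, minus strand: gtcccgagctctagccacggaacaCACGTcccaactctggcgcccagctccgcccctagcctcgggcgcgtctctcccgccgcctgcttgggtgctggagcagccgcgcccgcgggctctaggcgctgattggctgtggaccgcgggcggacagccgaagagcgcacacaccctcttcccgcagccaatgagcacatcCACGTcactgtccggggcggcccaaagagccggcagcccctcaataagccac
Hif1a, chr12:73907617-73907866, plus strand: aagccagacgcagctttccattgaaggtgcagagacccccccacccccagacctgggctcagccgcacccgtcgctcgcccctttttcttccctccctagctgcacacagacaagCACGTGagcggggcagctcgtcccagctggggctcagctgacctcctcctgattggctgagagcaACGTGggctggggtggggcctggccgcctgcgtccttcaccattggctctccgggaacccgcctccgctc
The printed Ldha window held 3 capital runs, whose first bases lay 145, 48 and 34 bases before the start, and 2 of them are E-boxes. In Pgk1 a close pair of runs began 150 and 131 bases before the start, one on each strand. The Hk2 window carried runs at 226 and 52 bases, and that of Hif1a an E-box at 135 bases and a further ACGTG at 70 bases. Ldha and Hif1a are annotated with further starts upstream, so these windows lie within the span of the gene in the deposited table. ACGTG or GCGTG stood in the window of 21 of 23 matched symbols that fell, of 3 of 3 that rose and of 5 of 6 not called, where a symbol with several windows was counted if any held the letters. Over all single windows the share was 76.92% of 52 for the members, beside 38.6% of all 32851 windows. CACGTG was present in 11.54% of member windows and in 6.021% of all windows. These are matches of letters, not measured binding, and the members had been picked as known targets.

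Of the 35 rows tested, 24 were lower in the cKO-labelled libraries and 3 higher at an edgeR adjusted p under 0.05, where 9.54% of all genes tested were lower and 12.2% higher. The median change of the 35 rows was -0.51 on the log2 scale, beside -0.0058 over all genes tested. Because the members were chosen with earlier results of these data known, these shares describe the list and are not a test of it. Both cKO-labelled libraries lay below both wild-type libraries for 28 rows (28.7% of all genes tested) and above them for 3 (29.2%). All 24 rows that fell were among those 28, and the largest falls were of Aldoc, Slc16a3, Bnip3 and Ankrd37. The members that rose were Pfkfb3, Mxi1 and Hif1a.

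**Figure D1:**
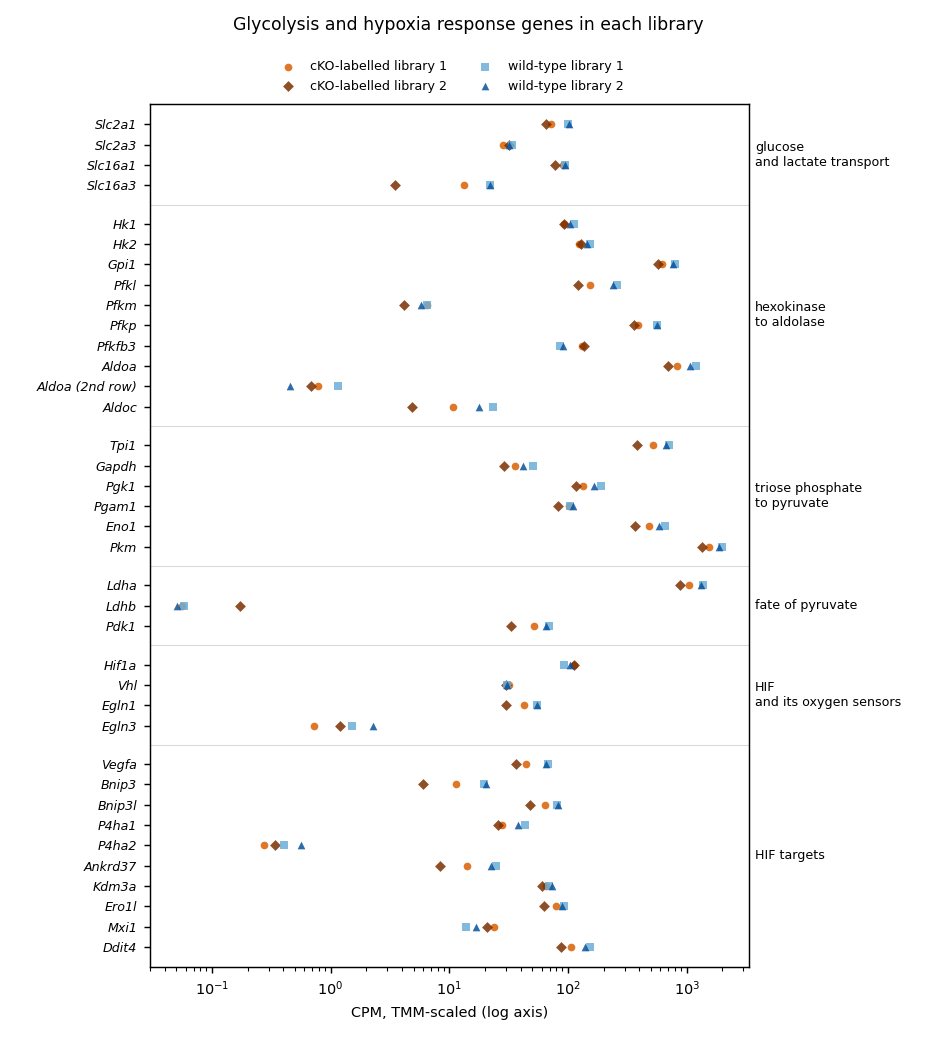
Each row is 1 gene, grouped by role, and each point is 1 library on a log axis of TMM-scaled CPM (circles and diamonds: cKO-labelled libraries 1 and 2; squares and triangles: wild-type libraries 1 and 2). Pkm, Ldha and Aldoa had the highest counts, and for Slc16a3, Aldoc, Bnip3 and Ankrd37 the cKO-labelled library 2 stands clearly left of library 1 and both stand left of wild type.

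Glucose enters B cells mainly through the transporter GLUT1, encoded by Slc2a1 (chromosome 4, 119108711 to 119137983). Slc2a1 stood at 72.2 and 65.0 CPM in cKO-labelled libraries 1 and 2, against 101 and 101 CPM in the wild-type libraries. The groups did not overlap, and the fall was -0.56 ± 0.067 (edgeR adjusted p of 8.42e-07). Slc2a3, which encodes the high-affinity transporter GLUT3, had 28.3 and 31.9 CPM in cKO-labelled libraries, against 34.0 and 31.6 CPM in wild type, with overlapping groups and a change of -0.12 ± 0.097. Slc16a3 (chromosome 11, 120948480 to 120960868) encodes MCT4, a transporter that releases lactate from strongly glycolytic cells. It had 13.4 and 3.49 CPM in cKO-labelled libraries 1 and 2, against 21.9 and 22.1 CPM in wild type. The wild-type libraries were alike, and the cKO-labelled libraries stood at 60.7% and 15.9% of their mean. The fitted fall was -1.38 ± 0.28 (edgeR adjusted p of 0.00072). DESeq2 gave a fall of the same size with a larger SE, -1.38 ± 0.878, which was not called (adjusted p of 0.366). Slc16a1, the lactate and pyruvate transporter MCT1, stood at 91.2 and 77.7 CPM in cKO-labelled libraries, against 93.6 and 94.8 CPM in wild type, and was not called (-0.16 ± 0.071). It was called lower when the trend of each library's log2 levels over transcript GC content was removed (the GC trend below), and when cKO-labelled library 1 was left out.

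From hexokinase to aldolase, 7 of 10 rows fell and 1 rose, where 9.54% of all genes tested fell and 12.2% rose. The hexokinases trap glucose in the cell as glucose 6-phosphate. Hk2 was at 125 and 128 CPM in cKO-labelled libraries, against 153 and 144 CPM in wild type, a fall of -0.24 ± 0.060, and Hk1 at 93.2 and 93.0 CPM in cKO-labelled libraries, against 112 and 104 CPM in wild type, a fall of -0.21 ± 0.063 (edgeR adjusted p of 0.0198). These were the smallest falls among the 24, and that of Hk1 was not called with the GC trend removed (-0.13, adjusted p of 0.148), with DESeq2 (-0.21, adjusted p of 0.0851), without wild-type library 1 (adjusted p of 0.223) or without cKO-labelled library 2 (adjusted p of 0.0514). Hk2 was not called without wild-type library 1 (adjusted p of 0.0724). Gpi1, the phosphoglucose isomerase of the next step, had 621 and 575 CPM in cKO-labelled libraries, against 797 and 766 CPM in wild type, and fell by 0.39 ± 0.057.

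Phosphofructokinase commits sugar to glycolysis and is built from liver, muscle and platelet type subunits. Pfkl, the liver type (chromosome 10, 77986947 to 78010083), had 153 and 122 CPM in cKO-labelled libraries 1 and 2, against 257 and 242 CPM in wild type. Both cKO-labelled libraries stood far below wild type, at 61.3% and 48.7% of its mean, and the fall of -0.86 ± 0.077 had the smallest p among the members (edgeR adjusted p of 1.00e-08). Pfkp, the platelet type, stood at 392 and 359 CPM in cKO-labelled libraries, against 565 and 566 CPM in wild type, and fell by 0.59 ± 0.059. Pfkm, the muscle type, was low in all libraries, with 6.43 and 4.12 CPM in cKO-labelled libraries, against 6.43 and 5.79 CPM in wild type, and the groups overlapped. The changes of the subunits are given side by side, and their difference was not tested. Exons of Pitrm1 overlap Pfkp, and those of Senp1 overlap Pfkm, on the opposite strand.

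Pfkfb3 (chromosome 2, 11471433 to 11554077) went the other way. It encodes a kinase that makes fructose 2,6-bisphosphate, the strongest activator of phosphofructokinase, and is itself known as a HIF target. Its level was 132 and 138 CPM in cKO-labelled libraries, against 85.2 and 90.4 CPM in wild type, a rise of 0.62 ± 0.062 (edgeR adjusted p of 6.24e-08). Both cKO-labelled libraries were alike and lay above wild type. Aldoa, the main aldolase of these cells, had 838 and 696 CPM in cKO-labelled libraries, against 1195 and 1075 CPM in wild type, and fell by 0.57 ± 0.069. The second Aldoa row (ENSMUSG00000114515), which lies just upstream on chromosome 7, had only 14 and 12 counts in cKO-labelled libraries, against 20 and 9 in wild type, and was not called. Aldoc, the aldolase best known from brain, had 10.8 and 4.86 CPM in cKO-labelled libraries, against 23.4 and 17.9 CPM in wild type. Its fall of -1.40 ± 0.22 (edgeR adjusted p of 3.45e-05) was the largest among the members. DESeq2 gave -1.40 ± 0.568 for it, which was not called (adjusted p of 0.0819).

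In the steps from triose phosphate to pyruvate 5 of 6 genes fell, beside 9.54% of all genes tested. Triose phosphate isomerase, Tpi1 (chromosome 6, 124810586 to 124814296), stood at 524 and 384 CPM in cKO-labelled libraries 1 and 2, against 708 and 665 CPM in wild type, a fall of -0.60 ± 0.088. Phosphoglycerate kinase, Pgk1, which forms the first ATP of the pathway, had 135 and 117 CPM in cKO-labelled libraries, against 188 and 167 CPM in wild type, a fall of -0.49 ± 0.070. Enolase, Eno1, had 482 and 366 CPM in cKO-labelled libraries, against 657 and 585 CPM in wild type, a fall of -0.55 ± 0.085. For each of these the groups were apart and library 2 was the lower cKO-labelled one. Pkm, which encodes pyruvate kinase, the last step, had the highest counts among the members, with 1536 and 1356 CPM in cKO-labelled libraries, against 1972 and 1863 CPM in wild type, and fell by 0.41 ± 0.056. Gene-level counts do not separate its M1 and M2 splice forms. Pgam1, phosphoglycerate mutase, had 103 and 82.0 CPM in cKO-labelled libraries, against 103 and 110 CPM in wild type, and was not called (edgeR adjusted p of 0.0660). It was called lower without cKO-labelled library 1 (-0.38) and also without wild-type library 1 (-0.26). With DESeq2 Tpi1 (-0.60, adjusted p of 0.0584) and Eno1 (-0.55, adjusted p of 0.0651) were not called.

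Gapdh, glyceraldehyde-3-phosphate dehydrogenase, was listed with only 651 and 502 counts in cKO-labelled libraries, against 871 and 825 in wild type, or 36.1 and 28.7 CPM in cKO-labelled libraries, against 50.5 and 41.9 CPM in wild type. By the authors' FPKM, which are per length, it averaged 7.86 in cKO-labelled libraries and 11.2 in wild type. Aldoa averaged 264 FPKM in cKO-labelled libraries and 389 FPKM in wild type, and Tpi1 165 FPKM in cKO-labelled libraries and 249 FPKM in wild type. A search of annotated transcripts found 82.49% of the 50-base windows of Gapdh also in other genes, 222 in all, of which 213 are pseudogenes. The same share was 72.19% for Eno1, 67.96% for Pgk1, 62.45% for Bnip3, 41.48% for Pgam1 and 34.41% for Pkm, and 0 for Hk2, Slc16a3, Pdk1 and Egln1. On the opposite strand, exons of Gapdh also overlap Iffo1, those of Tpi1 Spsb2, those of Hif1a Gm15283 and those of Slc2a1 Gm12868, and Pkm shares exonic bases with Gm49759 on its own strand. How reads with several placements were counted is not stated in the labels. The level of Gapdh is therefore uncertain, as is its place among the other genes, while its fall of -0.51 ± 0.105 (edgeR adjusted p of 0.00091) compares the same row across libraries.

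At the fate of pyruvate, Ldha (chromosome 7, 46841475 to 46855627), the lactate dehydrogenase subunit that favours lactate, had 1053 and 877 CPM in cKO-labelled libraries 1 and 2, against 1382 and 1310 CPM in wild type. The fall was -0.48 ± 0.065 (edgeR adjusted p of 5.62e-06). Ldhb, the subunit typical of heart, had 1 and 3 counts in cKO-labelled libraries, against 1 and 1 in wild type, and was not tested. Pdk1 encodes a kinase that inhibits pyruvate dehydrogenase. It had 52.0 and 33.3 CPM in cKO-labelled libraries, against 69.6 and 64.9 CPM in wild type, with both cKO-labelled libraries below wild type. Its fall of -0.65 ± 0.118 (edgeR adjusted p of 0.00021) was not called with DESeq2 (-0.66 ± 0.317, adjusted p of 0.177).

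**Figure D2:**
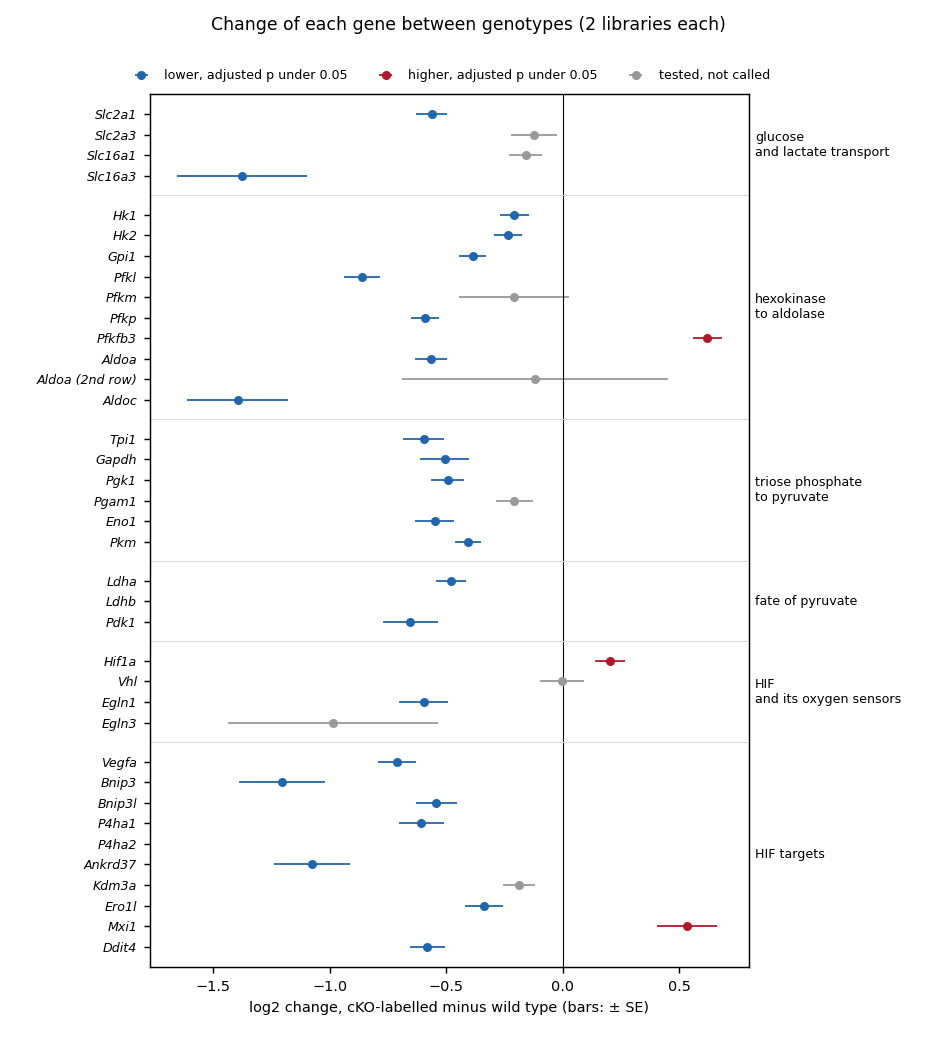
Points give the log2 change of each tested gene, cKO-labelled minus wild type with 2 libraries each, and bars its SE; blue points are lower and red points higher at an adjusted p under 0.05. The points of 24 rows are blue, 3 red ones (Pfkfb3, Hif1a and Mxi1) lie right of 0, and Ldhb and P4ha2 have no point because they were not tested.

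Among HIF itself and its sensors 1 of 4 genes fell and 1 rose, where 9.54% of all genes tested fell and 12.2% rose. Hif1a (chromosome 12, 73901375 to 73947530) stood at 113 and 114 CPM in cKO-labelled libraries, against 93.0 and 103 CPM in wild type, a rise of 0.20 ± 0.064 (edgeR adjusted p of 0.0246). That rise was small and was not called with the GC trend removed (0.11, adjusted p of 0.258), with DESeq2 (0.20, adjusted p of 0.0976), without wild-type library 1 (0.13, adjusted p of 0.366) or without cKO-labelled library 2 (adjusted p of 0.0602). Messenger RNA of Hif1a does not measure its protein, which oxygen controls. Vhl, the ubiquitin ligase subunit, had 31.9 and 29.8 CPM in cKO-labelled libraries, against 30.9 and 30.9 CPM in wild type. Egln1, the main oxygen sensor and itself a HIF target, had 42.3 and 30.3 CPM in cKO-labelled libraries, against 54.7 and 55.3 CPM in wild type, a fall of -0.60 ± 0.104 (edgeR adjusted p of 0.00015). Egln3 rested on 13 and 21 counts in cKO-labelled libraries, against 26 and 45 in wild type, and was not called (-0.99 ± 0.45).

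Among the other HIF targets 7 of the 9 tested fell and 1 rose, where 9.54% of all genes tested fell and 12.2% rose. Bnip3 (chromosome 7, 138890836 to 138909519) and Bnip3l encode receptors that deliver mitochondria to autophagy. Bnip3 had 11.3 and 6.07 CPM in cKO-labelled libraries 1 and 2, against 19.6 and 20.5 CPM in wild type, and Bnip3l had 63.8 and 48.1 CPM in cKO-labelled libraries, against 80.9 and 82.2 CPM in wild type. The falls were -1.20 ± 0.18 and -0.54 ± 0.089, with all cKO-labelled values below all wild-type ones. Ankrd37, an ankyrin repeat protein and a direct HIF target, had 14.1 and 8.41 CPM in cKO-labelled libraries, against 24.9 and 22.7 CPM in wild type, a fall of -1.07 ± 0.16 (edgeR adjusted p of 2.72e-05). Its exons overlap those of Ufsp2 on the opposite strand, which had 684 and 561 counts in cKO-labelled libraries, against 616 and 728 in wild type. Vegfa, the angiogenic growth factor, stood at 44.4 and 36.8 CPM in cKO-labelled libraries, against 67.6 and 65.5 CPM in wild type, and fell by 0.71 ± 0.083. Ddit4, an inhibitor of MTORC1 that also responds to other stresses, stood at 106 and 87.9 CPM in cKO-labelled libraries, against 152 and 138 CPM in wild type, and fell by 0.58 ± 0.075.

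P4ha1, a catalytic subunit of collagen prolyl hydroxylase, had 27.8 and 25.7 CPM in cKO-labelled libraries, against 43.6 and 38.0 CPM in wild type, and fell by 0.61 ± 0.097, and here the cKO-labelled libraries were close to each other. P4ha2 had 5 and 6 counts in cKO-labelled libraries, against 7 and 11 in wild type, and was not tested. Ero1l, an oxidase of the endoplasmic reticulum whose current symbol is Ero1a, had 79.8 and 63.3 CPM in cKO-labelled libraries, against 92.9 and 88.3 CPM in wild type. Its fall of -0.34 ± 0.081 was not called without cKO-labelled library 2 (-0.18, adjusted p of 0.0979). Kdm3a, a histone demethylase, had 65.4 and 60.9 CPM in cKO-labelled libraries, against 69.7 and 74.1 CPM in wild type, and missed the threshold (edgeR adjusted p of 0.0574), which it passed with the GC trend removed (adjusted p of 0.0164) and without cKO-labelled library 1 (adjusted p of 0.0341). Mxi1, a partner of MAX that opposes MYC, rose to 23.9 and 20.6 CPM in cKO-labelled libraries, against 13.9 and 16.8 CPM in wild type (0.53 ± 0.129), and was not called without wild-type library 1 (0.40, adjusted p of 0.0517).

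The cKO-labelled libraries also differed from each other in the module. For 30 of the 35 tested rows, library 2 was below library 1, which held for 47.7% of all genes tested. For 25 rows the gap was larger than counting error (exact binomial 95% interval of the count ratio below 1), beside 12.4% of all genes tested, and for 0 rows did it lie above 1, beside 14% of all genes tested. The intervals cover counting error only. They narrow as counts grow, so these shares, here and for wild type below, depend on read depth. Of the 35 rows, 33 averaged 5 CPM or more, beside 10174 of the 14180 genes tested. The shares over all genes are therefore not matched to the members in depth. Among these 33 rows, cKO-labelled library 2 was below library 1 for 29, beside 4759 of these 10174 genes. The median log2 ratio of library 2 to library 1 was -0.26 for the members and 0.0096 for all genes. Wild-type library 2 was below wild-type library 1 for 21 rows (50.1% of all genes tested), beyond counting error for 15 rows, beside 11.4% of all genes tested, with a median log2 ratio of -0.077 for the members. The gap between the cKO-labelled libraries was widest for Slc16a3, with a ratio of library 2 to library 1 of 0.261 (95% interval 0.194 to 0.347), and for Aldoc, with 0.452 (0.346 to 0.586). For Bnip3 the ratio was 0.536 (0.42 to 0.681), for Ankrd37 0.597 (0.484 to 0.735), for Pdk1 0.640 (0.576 to 0.711) and for Tpi1 0.732 (0.709 to 0.755). Hk1, Hk2, Hif1a, Pfkfb3 and P4ha1 had intervals that held 1.

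**Figure D3:**
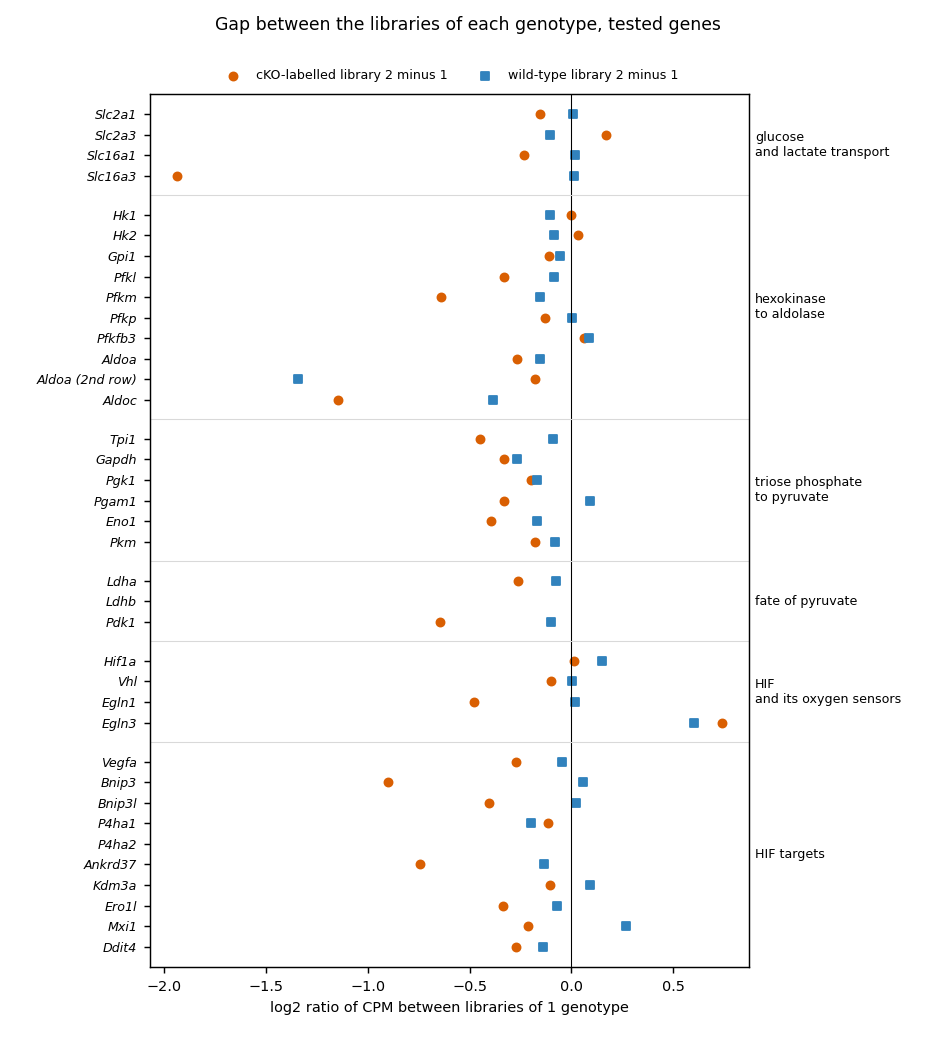
Each tested gene has 2 points on a log2 axis: the ratio of cKO-labelled library 2 to library 1 (circles) and of wild-type library 2 to library 1 (squares). Most circles lie left of 0, farthest for Slc16a3 and Aldoc, while most squares lie nearer to 0; the second Aldoa row and Egln3 rest on few counts, and Ldhb and P4ha2 have no points.

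Set against both wild-type libraries by itself, cKO-labelled library 2 had 27 rows lower and 3 higher with a median change of -0.64, and cKO-labelled library 1 had 22 lower and 2 higher with a median of -0.36. Of all genes tested, library 2 alone gave 7.42% lower and 9.91% higher, and library 1 alone 8.44% lower and 9.85% higher, while the medians over all genes were -0.0090 for library 2 and -0.0084 for library 1. In each such fit the lone library was assumed to vary like wild type, and both fits share the wild-type libraries. All 24 rows that fell with both libraries were lower with library 2 alone, and 22 with library 1 alone, Hk1 and Ero1l being the exceptions. The change of Slc16a3 was -2.66 with library 2 alone and -0.72 with library 1 alone, and that of Aldoc was -2.08 with library 2 alone and -0.94 with library 1 alone. For Bnip3 the changes were -1.73 with library 2 alone and -0.83 with library 1 alone, and for Pdk1 -1.01 with library 2 alone and -0.37 with library 1 alone. Pfkfb3, which rose, had changes of 0.65 with library 2 alone and 0.59 with library 1 alone. Without library 2 the changes were -0.39 for Tpi1, -0.36 for Eno1, -0.38 for Egln1, -0.35 for Bnip3l and -0.18 for Ero1l. These falls, and those of Slc16a3 and Pdk1, were more than 1.5 times smaller than with both libraries. Without library 1 the falls of Slc16a3, Pdk1 and Ero1l (-0.52) were more than 1.5 times larger than with both.

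Isozymes of one step were compared per length, by their shares of the authors' FPKM. Pfkl made up 42.4% and 39.4% of the phosphofructokinase FPKM in cKO-labelled libraries 1 and 2, against 46.6% and 45.2% in wild type, and Pfkp 54.1% and 57.9% in cKO-labelled libraries, against 51.0% and 52.6% in wild type. Slc16a3 made up 10.9% and 3.62% of the FPKM of both lactate transporters in cKO-labelled libraries 1 and 2, against 16.3% and 16.2% in wild type. The share of Slc2a1 among both glucose transporters was 84.0% and 80.8% in cKO-labelled libraries, against 86.0% and 86.9% in wild type, and that of Aldoc among aldolases 1.13% and 0.618% in cKO-labelled libraries, against 1.72% and 1.47% in wild type. For each of these the groups were apart. Hk2 held 65.7% and 66.3% of hexokinase FPKM in cKO-labelled libraries, against 66.3% and 66.6% in wild type. Ldha supplied 99.99% and 99.96% of lactate dehydrogenase FPKM in cKO-labelled libraries 1 and 2, against 99.99% and 99.99% in wild type. With 2 libraries per genotype an exact two-sided permutation test cannot give a p under 0.333, so these shares carry no test.

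**Figure D4:**
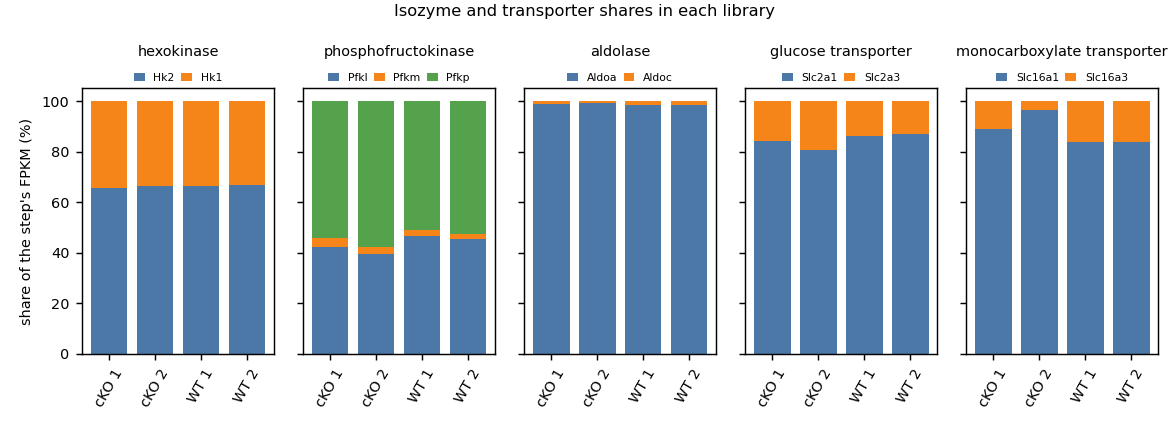
Stacked bars give the share of each isozyme or transporter in the FPKM of its step (percent), for cKO-labelled libraries 1 and 2 and then wild-type libraries 1 and 2. The Slc16a3 segment is smallest in cKO-labelled library 2 (3.62%), while the hexokinase shares are close in all 4 libraries.

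Genes around the pathway were taken from 7 further lists, of whose 103 symbols 88 were tested. Of these 11 were higher and 25 lower, where 12.2% of all genes tested were higher and 9.54% lower, with a median change of -0.11. Among other glycolytic isozymes and regulators, 1 of 18 was higher and 5 lower. Eno2, the neuronal enolase, rose to 11.5 and 12.1 CPM in cKO-labelled libraries, against 4.81 and 2.74 CPM in wild type (1.66 ± 0.22). Pfkfb4, which acts on the same regulator as Pfkfb3, had 162 and 190 counts in cKO-labelled libraries, against 261 and 315 counts in wild type, a fall of -0.65 ± 0.15. Pgm1, a phosphoglucomutase, fell by 0.41 ± 0.084. Of 7 other sugar and lactate transporters tested, 3 were lower and 1 higher. Bsg, which encodes basigin, the chaperone that brings MCT1 and MCT4 to the membrane, had 213 and 197 CPM in cKO-labelled libraries, against 285 and 255 CPM in wild type, a fall of -0.40 ± 0.064. Emb, which encodes the related embigin, rose by 0.36 ± 0.12, and Slc2a6 fell by 0.19 ± 0.060. The call of Emb was lost without any 1 of the 4 libraries (0.32 to 0.38), with the GC trend removed (0.30) and with DESeq2, and that of Slc2a6 without wild-type library 1 (-0.16), without cKO-labelled library 1 (-0.14), with DESeq2 and with the GC trend removed (-0.048).

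The pentose phosphate pathway, which branches off at glucose 6-phosphate, had 3 of 8 genes lower and 1 higher. Of all genes tested 9.54% were lower and 12.2% higher. Tkt, transketolase, stood at 641 and 646 CPM in cKO-labelled libraries, against 780 and 739 CPM in wild type (-0.24 ± 0.055), Pgls fell by 0.39 ± 0.067, and Rpe rose by 0.28 ± 0.088, a call lost without wild-type library 1 (0.14) and without cKO-labelled library 1 (0.18). Without wild-type library 2 the rise of Rpe was 0.43. With the GC trend removed the changes were -0.15 for Tkt and -0.22 for Pgls, still called, and 0.19 for Rpe, not called, as it was not with DESeq2. Of 12 genes for the entry of pyruvate into mitochondria 1 was called, Mpc1, a subunit of the pyruvate carrier, at -0.42 ± 0.14. It was not called without wild-type library 1 (-0.33), without cKO-labelled library 1 (-0.40), without cKO-labelled library 2 (-0.43) or with DESeq2. The others had changes between -0.22 and 0.18.

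Other HIF subunits and regulators had 1 of 10 higher and 3 lower, where 12.2% of all genes tested were higher and 9.54% lower. Egln2, a further prolyl hydroxylase, stood at 55.6 and 58.7 CPM in cKO-labelled libraries, against 80.0 and 79.5 CPM in wild type (-0.48 ± 0.067). Eloc and Elob, the elongins that sit with VHL, had changes of 0.30 ± 0.064 and -0.23 ± 0.067, and Elob was not called without wild-type library 1 (-0.13), without cKO-labelled library 1 (-0.19), with DESeq2 or with the GC trend removed (-0.12). With that trend removed the fall of Egln2 was -0.31 and still called. Other HIF targets went both ways, with 5 of 22 higher and 5 lower and a median of 0.15. Gys1, muscle glycogen synthase, had 34.7 and 30.3 CPM in cKO-labelled libraries, against 67.6 and 64.3 CPM in wild type (-1.02 ± 0.082). Ak4, a mitochondrial adenylate kinase, had 7.65 and 2.29 CPM in cKO-labelled libraries, against 12.98 and 13.5 CPM in wild type, and fell by 1.41 ± 0.28, which was not called with DESeq2 (-1.41 ± 0.797, adjusted p of 0.281). The fall of Ak4 was -0.79 with cKO-labelled library 1 alone and -2.53 with library 2 alone. Anxa2, which encodes the membrane-binding protein annexin A2, rose to 38.9 and 44.8 CPM in cKO-labelled libraries, against 11.7 and 10.6 CPM in wild type (1.91 ± 0.11). Adm, Ndrg1, Bhlhe40 and Cxcr4 were the other higher members, and Kdm4b, Fam162a and Hilpda the other lower ones.

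Of 11 regulators by sugar, MYC and MTOR, 2 were higher and 5 lower, beside 12.2% and 9.54% of all genes tested. With 1 library left out 2 or 3 were lower and 0 or 1 higher, and with the GC trend removed 2 were lower and 1 higher. Rptor, the MTORC1 scaffold, had 46.6 and 49.6 CPM in cKO-labelled libraries, against 58.3 and 66.1 CPM in wild type (-0.37 ± 0.077), and Mtor 88.7 and 98.96 CPM in cKO-labelled libraries, against 109 and 116 CPM in wild type (-0.26 ± 0.066). Mtor was not called without wild-type library 2 (-0.22) or without cKO-labelled library 1 (-0.18). Prkaa1, a catalytic subunit of the energy sensor AMPK, rose by 0.28 ± 0.082, a call lost when any 1 library other than cKO-labelled library 2 was left out (0.22 to 0.29), with DESeq2 and with the GC trend removed (0.18). Myc, outside the naming rule and added after its values were seen, had 259 and 244 CPM in cKO-labelled libraries, against 296 and 282 CPM in wild type, and fell by 0.20 ± 0.059 (edgeR adjusted p of 0.0163). Its call was lost without wild-type library 1 (-0.17), without cKO-labelled library 2 (-0.16) and with the GC trend removed (-0.11).

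**Figure D5:**
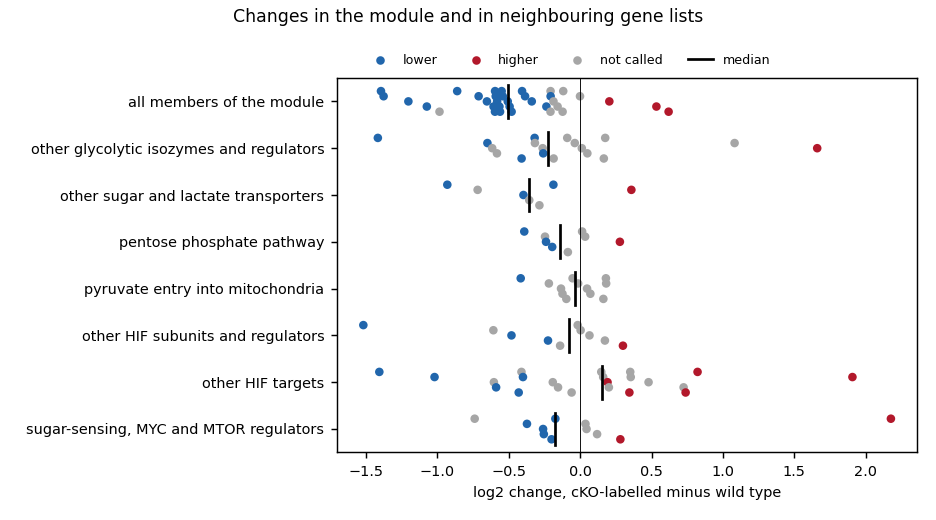
Points are tested genes on an axis of log2 change, cKO-labelled minus wild type (blue lower, red higher, grey not called), in the module and in 7 neighbouring lists, and black bars are medians. The module has its median at -0.51, and the other HIF targets spread to both sides of 0 with a median at 0.15.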

How the data were processed

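The authors deposited raw read counts and FPKM per gene for 2 cKO-labelled and 2 wild-type poly(A) libraries. The submitters' processing notes name the build GRCm38, the aligner HISAT2 (2.0.1), the counter HTSeq (0.6.1), the trimmer cutadapt (1.9.1) and bcl2fastq (2.17.1.14). Their settings, the annotation release, the strand setting and the treatment of reads with several placements are not stated there or in the labels, and the library kit named in the labels does not mark strand.

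Counts were filtered with filterByExpr (minimum 10, total 15), scaled by TMM and tested with the quasi-likelihood test of edgeR 4.0.16 (R 4.3.3) on the 4 libraries, with Benjamini-Hochberg adjustment over all 14180 genes and a threshold of 0.05. A change is log2, cKO-labelled minus wild type, and its SE is that change, without sign, over the root of the F value. The deposited FPKM are scaled by gene length and served to compare levels between genes, isozyme shares and summed levels, the latter also across genotypes. They were not used in any test, and equal a recalculation from the counts within 0.005. Transcripts for GC content and shared 50-base windows came from GENCODE, promoters from RefSeq GRCm38.p6. On simulated data 61 of 66 genes changed 1.5-fold were called, and all at 2-fold or more. The changed genes had a mean of at least 5 CPM, and every gene had the same dispersion (biological coefficient of variation of 6.13%). No gap between libraries of a genotype was simulated, so these shares need not hold for members with few counts or unlike libraries. Totals put 3 counts at 0.152 to 0.174 CPM. Alternatives were DESeq2 1.42.0, limma-voom 3.58.1, RLE size factors, library totals only, no filter, removal of each library's lowess trend over GC content, a replicate block, removal of ribosomal RNA rows, and each library left out. Ribosomal RNA rows held 0.115% and 0.0947% of counts in cKO-labelled libraries, against 0.125% and 0.525% in wild type.

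The members and lists were chosen with earlier results of these data known. Named genes are all members, Adar, and up to 3 called genes per further list with the largest change and a mean of at least 5 CPM. Other genes listed by name complete a count and were chosen after their values were seen. Some marker genes are not reported here.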

Additional observations from a re-analysis of the deposited data

How the results depend on the processing

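RLE size factors, library totals only and removal of ribosomal RNA rows left 24 members lower and 3 higher. Over all genes these settings gave 1278 to 1353 lower and 1726 to 1740 higher. Limma-voom and no filter gave 25 members lower and 3 higher, and removal of the GC trend 25 lower and 2 higher. Over all genes limma-voom called 1380 lower and 1740 higher, and no filter 1451 lower and 1716 higher. DESeq2 gave 18 members lower and 2 higher. Over all genes DESeq2 called 795 lower and 1235 higher, and in the further lists 14 lower and 6 higher. With the GC trend removed 977 genes were lower and 1666 higher, beside 1353 lower and 1727 higher in the main fit. In the further lists that setting gave 18 lower and 11 higher. Leaving out 1 library in turn gave 22 to 27 members lower and 1 to 3 higher, 984 to 1252 genes lower and 1293 to 1469 higher, and 16 to 20 genes of the further lists lower and 7 to 8 higher. The single higher member was left without wild-type library 1. With the replicate number as a block, 26 members were lower and 3 higher, against 1594 genes lower and 1904 higher. Pgam1 and Kdm3a were gained there. With the block and the GC trend removed, 25 members were lower and 2 higher, against 932 genes lower and 1594 higher. The labels state no pairing of libraries, so the numbers were not taken as pairs. The deviations of same-numbered libraries correlated at 0.0135 over 10163 genes, a value that does not test pairing for the members. The signs that reversed belong to genes not called: the second Aldoa row was at 0.0595 with the GC trend removed, 0.11 with the block as well, 0.67 without wild-type library 1 (-0.66 without wild-type library 2) and 0.0368 with limma-voom. Vhl was at 0.0036 with library totals, 0.0002 with the GC trend removed and 0.0478 without cKO-labelled library 2 (-0.0536 without library 1), and Pfkm at 0.0765 without cKO-labelled library 2 (-0.57 without library 1). The cause was not tested. With 2 libraries per genotype, low counts, as for Egln3 and the second Aldoa row, limit what can be detected.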

Other observations

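Summed over the 37 member rows, the authors' FPKM came to 1753 and 1465 in cKO-labelled libraries 1 and 2, against 2301 and 2172 in wild-type libraries 1 and 2. In wild type 6 members averaged at least 100 FPKM: Ldha, Aldoa, Pkm, Tpi1, Gpi1 and Eno1, each an enzyme of the main path. The sums of both groups were apart, and the gap between the cKO-labelled libraries was wider than that between the wild-type ones.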
